A study of Glycine max with 4 samples.

Results

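The very broad start regions of soybean root and shoot are stretches of 150 bp or more in which capped 5′ ends were found again and again with no gap over 150 bp. They were chosen by 2 measured values in the deposited lists of start clusters on the 20 sequences of the assembly, a width of at least 150 bp and a score of at least 5 TPM (the scaled tag level of the pooled tissue, summed over the cluster), and root and shoot clusters that overlapped on a strand were joined. This gave 944 regions, which is 4.05% of the 23329 merged start regions of the study and 8.12% of the 11620 that reached 5 TPM. Of the 944, 493 (52.2%) met both limits in both tissues, 242 met them in the root list alone and 209 in the shoot list alone. Width and score chose these regions, so both are given as a description and without a test.

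The libraries were made by nanoCAGE, which sequences the 5′ end of capped RNA and so marks the base at which a transcript starts. Roots and shoots of Williams 82, the cultivar whose genome serves as a soybean reference, were harvested apart from plants aged 2 weeks, kept in white light (300 µmol m-2 s-1) for 12 h a day, and each of the 4 libraries used 1 µg of total RNA. There were 2 root and 2 shoot libraries of the same genotype, with no other treatment, and the labels do not say that they came from separate plants, so p-values reflect the variation among these libraries alone, and that may be technical. Counts per library cover 639 of the 944 regions, with 1000476 and 874004 tags in the root libraries and 901261 and 655935 in the shoot libraries, and the other 305 regions have pooled TPM values only. Gene names and defining markers of the tissues are not analysed here, because the positions carry no gene names.

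A promoter can start transcription at a single base or over a wide stretch. In the textbook picture, sharp promoters often carry a TATA box that fixes the start at a set distance, while broad promoters lack it and let the polymerase begin at many bases. Plant genomes use both kinds, and the spread of starts is usually measured both by the full width of the cluster and by the stretch that holds most of its tags, since a few rare starts can widen the former without changing the latter.

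At the limits, the values just inside and just outside were close. At a width of exactly 150 bp there were 13 root and 16 shoot clusters of 5 TPM or more, and at 149 bp there were 13 and 13. The lowest scores kept were 5.15 TPM for 3 root clusters on sequences 6, 8 and 16, and the highest scores left out were 4.91, 4.90 and 4.90 TPM for shoot clusters of 236, 217 and 186 bp on sequences 7, 18 and 16. The last of these lies at 7116504 to 7116689 on the plus strand of sequence 16 and is the shoot counterpart of a region kept for its root score of 5.15 TPM. The limit on score left out 44 root and 56 shoot clusters that were wide enough.

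Most of the 944 regions were only slightly wider than the limit. The median width was 197 bp, the quartiles were 168 and 246 bp, and the widest region measured 1161 bp. The number of positions that reached 1 TPM in either tissue had a median of 12.5 and ran from 3 to 371. The starts were rarely laid out evenly: the largest empty stretch inside a region had a median of 93 bp, and in 337 regions (35.7%) a single gap took up at least 50% of the width. Those 337 regions had a median of 7 starts and the other 607 a median of 18.

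The full width and the stretch that held most tags were different things. The middle 80% of TPM (from the 10% to the 90% point along the region, both tissues pooled) spanned a median of 136 bp, and it reached 150 bp in 389 regions (41.2%). In 76 regions (8.05%) it was 20 bp or less, so these were focused start sites with a wide fringe of rare starts. The name very broad therefore describes the listed width of all 944 regions and the distribution of tags in fewer of them. The most used position held a median of 26.7% of a region's TPM, against 48.6% in the 10676 narrower regions of 5 TPM or more. The effective number of starts, which counts the equally used positions that would give the same evenness, had a median of 7.93, against 3.06 in the narrower regions. Both measures rest on the same tags as the width that chose the regions, so these contrasts are a description.

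**Figure D1:**
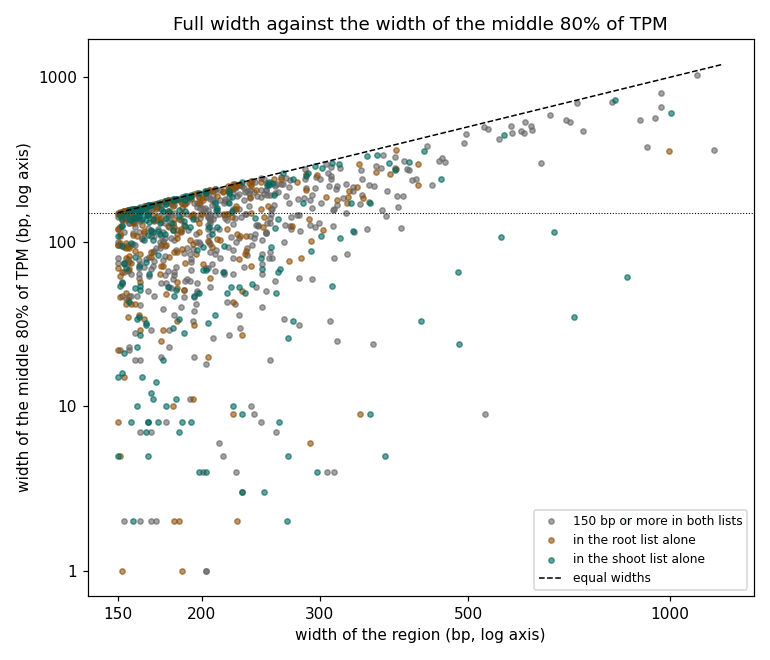
Each of the 944 points is a very broad region, with its full width on the x axis and the width of the middle 80% of TPM on the y axis (bp, both log axes), coloured by the list in which it met the limits. At points near the dashed line the middle 80% of TPM spans almost the full width, with or without empty stretches inside it. Points above the dotted line at 150 bp number 389 with those on it, and points at the bottom are focused sites with a wide fringe.

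Focused tags were more frequent among strong regions. Regions were classed by their TPM in the tissue where it was higher. Of the 98 regions with 500 TPM or more, 33 (33.7%) had a middle 80% of 20 bp or less. The numbers were 36 of 455 (7.91%) at 50 to 500 TPM and 7 of 391 (1.79%) below 50 TPM. The median full width went the other way, from 182 bp in the weakest class through 206 bp to 249.5 bp in the strongest. The median share of the main start was 24.9%, 26.6% and 42.3% in the same order. The cluster lists count every position from a fixed level of 1 TPM up, and the share of clusters that were 150 bp or wider depended on score in both lists. In the root list it was 2.56% at 5 to 10 TPM and 20.9% at 200 to 1000 TPM. In the shoot list it was 2.70% and 23.1% in these classes, and 40.8% of the 76 clusters of 1000 TPM or more.

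The main start also lay at different places by level. It fell in the first 20% of the length, counted from the 5′ side, in 33.8% of the weakest class, 24.0% of the middle class and 40.8% of the strongest, with no steady order by level. It fell in the last 20% in 27.9%, 19.3% and 7.14% in the same order. In the strongest class a median of 13.4% of the TPM lay more than 10 bp downstream of the main start and 2.42% upstream, and in the weakest class 29.9% and 20.8%.

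A small group carried starts at 100 or more positions. These 21 regions had a median width of 708 bp, a median of 52.8 effective starts and a middle 80% with a median of 468 bp, and 1 of them nevertheless had a middle 80% of 4 bp. They held 24.4% of the root TPM of all very broad regions and 8.37% of the shoot TPM. Much of this root share came from 2 of the 21. The region at 12733167 on sequence 9 had the highest root value, 9762 TPM. The region at 3566171 on sequence 16, focused on a single base, had 7243 TPM in root and 1104 TPM in shoot. All very broad regions together held 121899 TPM in root. At the other end, 144 regions had starts at 5 positions or fewer.

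Very broad regions were spread over the whole genome. Each sequence held 31 to 64 of them, from 5.01% of the regions of 5 TPM or more on sequence 17 to 10.96% on sequence 20, and 456 (48.3%) lay on the plus strand. Other start clusters were near more often than around narrower regions. A cluster on the same strand lay within 1000 bp of 25.7% of them (95% Wilson interval 23.1 to 28.6), against 14.2% of narrower regions (13.5 to 14.9). A cluster on the opposite strand lay within 1000 bp of 7.84% (6.29 to 9.73), against 3.51% (3.18 to 3.88), and it overlapped the region itself in 3.07% and 0.178%. A wider region covers more sequence, and the part of that in the overlap was not tested. Among these neighbours were 18 pairs of very broad regions that followed each other on a strand. The intervals and count floors given here cover counting error only.

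The 2 tissues mostly agreed on the outline when both listed a region as very broad. Of the 493 regions broad in both lists, 319 had the same width in both, 116 were wider in root and 58 wider in shoot. Of the 242 that met the limits in root alone, 220 still had a shoot cluster, with a median width of 106.5 bp, and 37 of these shoot clusters were 150 bp or wider but below 5 TPM. Of the 209 that met them in shoot alone, 151 had a root cluster, with a median width of 84 bp, of which 18 were wide but weak. No cluster of the other tissue was listed in 22 and 58 cases. Both lists were built from the same positions, those of 1 TPM or more in either tissue, which ties the outlines to each other.

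The widest region lies at 150025 to 151185 on the plus strand of sequence 12 and spans 1161 bp. Its tags numbered 2610 and 2935 in the root libraries and 1015 and 502 in the shoot libraries, which is 2746, 3486, 1479 and 1050 scaled CPM (counts relative to library size after scaling of the libraries). Both root libraries lay above both shoot libraries, and the log2 fold change of shoot over root was -1.30 ± 0.31 (SE; adjusted p = 0.00482, quasi-likelihood test of edgeR, p-values adjusted by Benjamini and Hochberg). No position dominated: the main start at 150713 held 5.71%, 5.49%, 4.83% and 6.37% of the tags and was the most used base in all 4 libraries. The middle 80% of tags spanned 362 and 363 bp in root and 357 and 357 bp in shoot. The shape was thus almost the same in 4 libraries whose tag numbers differed several-fold. At full depth, the position shares of the root libraries overlapped by 80.02% and those of the shoot libraries by 63.3%, and the latter had fewer tags.

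The next widest, at 7249831 to 7250928 on the minus strand of sequence 2, had starts at both ends. It held 1526 and 988 root tags and 62 and 6 shoot tags. The main start at 7250923, at the 5′ edge, took 7.93% and 8.91% of the root tags, and 79.4% and 77.1% lay more than 100 bp downstream. The second most used base lay 1025 bp downstream of the main one, so the middle 80% spanned 1026 bp. The shoot level was lower by 4.68 on the log2 scale in edgeR (log2 fold change -4.68 ± 0.60 SE, adjusted p = 0.000104), and this size rests on the shoot library used, with -6.79 without shoot replicate 1 and -3.89 without shoot replicate 2.

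A region of 1004 bp, at 7487806 to 7488809 on the plus strand of sequence 11, was nearly absent from root. It held 3 and 2 root tags and 2709 and 2006 shoot tags, which is 3.16 and 2.38 against 3948 and 4195 scaled CPM (log2 fold change 10.43 ± 0.46 SE, adjusted p = 3.71e-07, edgeR). Its shape was the reverse of the region on sequence 2: the main start at 7488714 sat 90.5% of the way along, took 6.75% and 9.82% of the shoot tags, and 49.1% and 47.4% lay more than 100 bp upstream. A second very broad region, at 7487103 to 7487357, precedes it on the same strand. That one had 0 root tags and 207 and 186 shoot tags, with 43.0% and 59.7% of them at its main start.

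The region of 997 bp at 45619597 to 45620593 on the plus strand of sequence 10 shows how a wide outline can hold a dominant base. A single base, 45619601, took 72.8% and 73.4% of its 2965 and 1088 root tags, and 55.3% and 65.3% of its 123 and 72 shoot tags. Another 15.1% and 16.7% of the root tags, and 32.5% and 23.6% of the shoot tags, lay more than 100 bp downstream. Its effective number of starts was 1.89. The level was lower in shoot, with a log2 fold change of -3.74 ± 0.43 (SE; adjusted p = 5.47e-05, edgeR) and with -2.98 when root replicate 1 and -4.26 when root replicate 2 was left out.

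The remaining pair of the 6 widest were both stronger in root and both uneven between the shoot libraries. At 47477678 to 47478646 on the plus strand of sequence 10, the tags were 2643 and 2444 in root and 219 and 3 in shoot, with 59.7% of the TPM more than 100 bp downstream of the main start. Its log2 fold change of -4.09 ± 0.96 (SE; adjusted p = 0.00434, edgeR) became -8.80 without shoot replicate 1 and -3.10 without shoot replicate 2, and DESeq2 did not call it (adjusted p = 0.0651). At 49816654 to 49817621 on the minus strand of sequence 8, the tags were 555 and 599 in root and 71 and 5 in shoot. This was the most even profile of the 6, with 141.3 effective starts and 3.33% of the TPM at the main start. Its log2 fold change was -3.42 ± 0.61 (SE; adjusted p = 0.000774, edgeR), and -5.95 and -2.59 without shoot replicate 1 and 2.

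**Figure D2:**
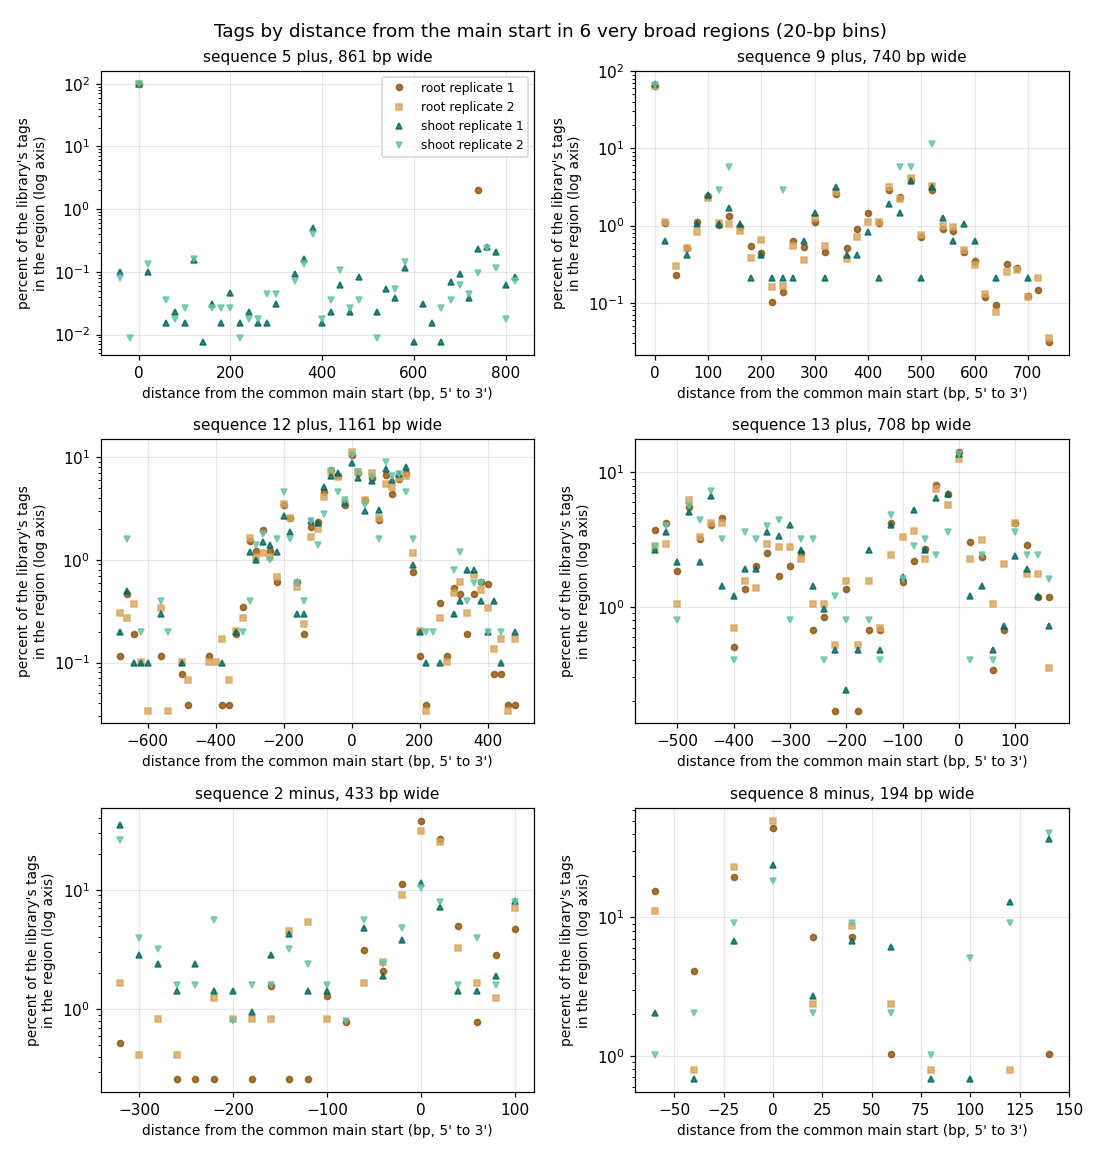
Tags in 20-bp bins by distance from the main start of both tissues (x axis, bp, 5′ to 3′) as a percent of each library's tags in the region (y axis, log), for the 2 most abundant regions, the widest, the most evenly spread and 2 regions whose starts were used differently, with a symbol per library and bins without tags left out. In the top pair a single bin stands far above the rest, in the middle pair the tags form wide hills that the 4 libraries share, and in the bottom pair the root and shoot symbols part at the edge bins.

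Regions with 200 tags or more in each library gave the firmest view of an even spread. The highest effective number of starts among them, 93.3, was found at 15902573 to 15903280 on the plus strand of sequence 13, a region of 708 bp. It held 593 and 575 root tags at 191 and 218 positions, and 417 and 249 shoot tags at 180 and 135 positions. The most used base of a library held between 3.12% and 4.55% of its tags, and it was not the same base in the 4 libraries. The level was 624, 683, 608 and 521 scaled CPM, with a log2 fold change of -0.21 ± 0.25 (SE; adjusted p = 0.504, edgeR), and so was not called. The position shares overlapped by 63.9% between the root libraries, 45.8% between the shoot libraries and 54.5% and 46.6% between root and shoot libraries of the same number.

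The next most even region was the widest one on sequence 12, with 75.5 effective starts. At 20565936 to 20566397 on the plus strand of sequence 8, a region of 462 bp, there were 1374 and 1440 root tags and 633 and 232 shoot tags and 52.8 effective starts. Its middle 80% spanned 306, 299, 312 and 278 bp. The level was lower in shoot by 1.16 on the log2 scale (log2 fold change -1.16 ± 0.34 SE, adjusted p = 0.0136, edgeR), and the call was lost without shoot replicate 2 (adjusted p = 0.147, edgeR). At 651795 to 652060 on the minus strand of sequence 6 there were 307 and 255 root tags and 321 and 212 shoot tags and 44.1 effective starts, and the main start at 651916 was the most used base in all 4 libraries, with 8.79%, 10.2%, 8.72% and 10.4%. Its level was not called (log2 fold change 0.54 ± 0.24 SE, adjusted p = 0.0761, edgeR), although both shoot libraries, at 467.8 and 443.3 scaled CPM, lay above both root libraries, at 323.0 and 302.8.

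Of the 6 most abundant very broad regions, ranked by the mean scaled CPM of the 4 libraries, 4 had a middle 80% of 20 bp or less. At 34430489 to 34431349 on the plus strand of sequence 5, the first in this ranking, a single base held 77.8% and 78.8% of the 13161 and 11276 shoot tags, and the 3 most used bases together held 93.5% of the TPM of both tissues. Only 2.64% and 2.11% of the shoot tags lay more than 100 bp downstream, at scattered positions, and these rare tags gave the region its 861 bp. The middle 80% spanned 2 bp. The same base held 79.6% and 92.9% of the 49 and 28 root tags.

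The second in this ranking, at 12733167 to 12733906 on the plus strand of sequence 9, had both a peak and a long body, with a middle 80% of 471 bp, and it led by pooled TPM (9928 against 7654). Its tags numbered 19401 and 14480 in root and 479 and 35 in shoot. The base at 12733171 held 45.3%, 44.8%, 47.4% and 48.6% of them, and 31.2%, 31.4%, 27.8% and 34.3% lay more than 100 bp downstream. These shares were close to each other although the shoot libraries held 698.1 and 73.2 scaled CPM against 20415 and 17197 in root. All 371 positions that reached 1 TPM were packed so closely that the largest gap was 13 bp. The position shares overlapped by 93.5% between the root libraries and by 80.7% between root and shoot replicate 1.

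The other 4 of the 6 most abundant had 1 region of intermediate spread and 3 focused ones. The intermediate region had a middle 80% of 61 bp and 7.17 effective starts, and 30.2% of its TPM lay more than 10 bp downstream. In this region, at 2014172 to 2015032 on the minus strand of sequence 5, with 12450 and 6665 shoot tags and 28 and 21 root tags, 2 bases 6 bp apart held 25.2% and 24.2% of the TPM, and the upstream one of them was the most used base in both root libraries. At 47966432 to 47966806 on the plus strand of sequence 1, with 7141 and 7005 shoot tags and 8 and 12 root tags, a single base held 74.1% and 75.1% of the shoot tags. At 11558427 to 11558595 on the minus strand of sequence 7, with 7432 and 6513 shoot tags and 20 and 16 root tags, 3 bases within 5 bp held 80.5% of the TPM. The middle 80% of the latter pair spanned 5 and 11 bp. These 3 regions lay far higher in both shoot libraries than in either root library.

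At 32885544 to 32885705 on the plus strand of sequence 13, the 4 libraries shared a profile. The tags numbered 6364 and 7637 in root and 3566 and 2866 in shoot, and the main base at 32885666 held 35.7%, 36.7%, 34.9% and 36.0%. The middle 80% was 7 bp in each library, and the overlap of position shares ran from 96.6% to 98.0% in the 4 pairs of libraries compared. The level was 6696, 9070, 5197 and 5993 scaled CPM, with no overlap between the tissues, and was not called (log2 fold change -0.49 ± 0.33 SE, adjusted p = 0.234, edgeR). It was called when the libraries were scaled to total tags (adjusted p = 0.0488, edgeR) and without root replicate 1 (adjusted p = 0.0168, edgeR).

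The first test asked whether the level of very broad regions differed between root and shoot. Of 638 tested, 388 (60.8%) were called by edgeR's quasi-likelihood test at an adjusted p of 0.05, where 52.9% of all 7183 tested regions and 52.7% of the 6354 narrower ones of 5 TPM or more were called. Higher in shoot were 220 very broad regions (34.5%), against 29.5% of all, and higher in root were 168 (26.3%), against 23.4% of all. At an unadjusted p below 0.05 there were 416. The share called depended on how a region met the limits: it was 44.1% of the 345 regions broad in both lists, below the 52.9% of all regions, but 69.3% of the 153 broad in the root list alone and 92.9% of the 140 broad in the shoot list alone. Score and width rest on the same tags as the test, a region that met the limits in a single tissue had to reach them where it was high, and a region that met them in both had to be present in both. The share over all very broad regions is therefore a description, and nothing about width is read from it. Scaling to total tags in place of TMM turned the split from 56.7% to 45.5% of the calls higher in shoot, 182 against 218 in root, and moved the median log2 of all regions from 0.06 to -0.32. In bulk tissue, fewer cells that use a start and less RNA per cell cannot be told apart.

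Very broad and narrower regions also differ in abundance. Within classes of mean level, the share called was 57.3% of 82 very broad and 51.9% of 2761 narrower regions below 30 scaled CPM, and 57.0% of 214 and 51.1% of 2211 at 30 to 100. It was 60.7% of 183 and 56.3% of 932 at 100 to 300, 63.1% of 103 and 57.3% of 337 at 300 to 1000, and 76.8% of 56 and 59.3% of 113 at 1000 or more. Regions broad in both lists gave lower shares, with 0 of 13 called below 30, 31 of 100 at 30 to 100, 68 of 131 at 100 to 300, 35 of 70 at 300 to 1000 and 18 of 31 at 1000 or more. Each was below the share of narrower regions of the same class, and these differences were not tested.

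Differences called towards shoot were larger than those called towards root. The median log2 fold change of very broad regions called higher in shoot was 3.57, against 3.18 for all regions so called. For those called higher in root it was -1.87, against -2.44 for all. Past 8-fold, 122 very broad regions (19.1%) were higher in shoot, against 15.6% of all, and 49 (7.68%) were higher in root, against 9.31% of all. Of the 122, 109 were broad in the shoot list alone and 13 in both lists, which is 3.77% of those broad in both. Of the 49, 37 were broad in the root list alone and 12 in both, which is 3.48%. The root number depended on the shoot libraries, with 60 such regions without shoot replicate 1 and 40 without shoot replicate 2. Of the 35 of these 49 that had 5 shoot tags or more, 28 had the higher scaled CPM in shoot replicate 1, with a median ratio of 2.54 to shoot replicate 2, while the 250 regions not called had a median ratio of 0.974. No root tag was found in 21 of the regions called higher in shoot, and no shoot tag in 1 called higher in root. The limits on width and score can favour such regions, and no share over all tested regions stands beside these counts. They are therefore a description.

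The list in which a region was broad went with the direction of its difference, which the limits themselves favour. All 130 calls among regions broad in the shoot list alone were towards shoot. Of the 106 calls among those broad in the root list alone, 99 were towards root and 7 towards shoot. Among the 345 that were broad in both, 83 were called higher in shoot and 69 higher in root, and the median log2 fold change was 0.08.

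**Figure D3:**
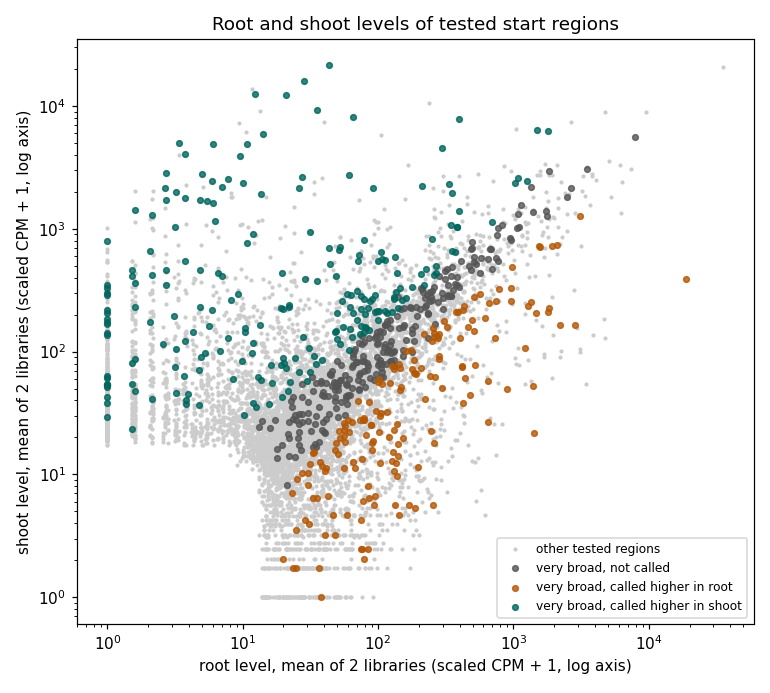
Mean scaled CPM plus 1 of the 2 root libraries (x axis) and the 2 shoot libraries (y axis, both log) for all 7183 tested regions, with very broad regions coloured by the call of the level test and all others in grey. The 220 very broad regions called higher in shoot reach the left edge, where root had 0 tags, while the 168 called higher in root mostly stay closer to the diagonal.

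The regions with the largest fitted folds towards shoot were hardly used by root. Where root had 0 tags, only a lower bound of the fold is given, so the order by fitted fold is uncertain. At 45327523 to 45327951 on the plus strand of sequence 10, root had 0 and 0 tags and shoot 338 and 524, so that shoot was at least 474-fold higher against a floor of 3 tags over the root libraries (adjusted p = 3.32e-06, edgeR). The shoot libraries differed, at 492.6 and 1096 scaled CPM, and the bound was 294-fold without shoot replicate 2 and 655-fold without shoot replicate 1. Its tags were spread out, with 83.9 effective starts and 4.37% at the main start. At 5455461 to 5455794 on the plus strand of sequence 4, root had 0 and 4 tags and shoot 3112 and 2605, with 43.4% and 47.6% of the shoot tags at the main start and 40.6% and 37.4% more than 100 bp downstream. The region on sequence 11 at 7487103 to 7487357 was at least 206-fold higher in shoot.

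The other 3 of this kind were a mix of shapes. At 1136526 to 1136878 on the plus strand of sequence 2, shoot had 247 and 144 tags and root 0 and 0, a difference of at least 197-fold, and 78.5% and 75.7% of the tags lay more than 100 bp downstream of the main start. At 36158537 to 36158793 on the minus strand of sequence 12, shoot had 803 and 793 tags and root 0 and 1, a ratio of 2457 with an exact binomial 95% interval of 440.3 to 97098. At 2848851 to 2849004 on the minus strand of sequence 4, shoot had 210 and 140 tags and root 0 and 0, at least 179-fold, and the 3 most used bases held 61.7% of the TPM. In these 6 regions every shoot library lay above every root library, which the rule for naming them required.

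Of the 6 regions with the largest differences towards root, 2 on sequence 9 had many tags and the other 4 few. The abundant region at 12733167 to 12733906 had a log2 fold change of -5.59 ± 0.86 (SE; adjusted p = 0.000313, edgeR), with -8.02 when shoot replicate 1 and -4.70 when shoot replicate 2 was left out. A second region of sequence 9, at 12880136 to 12880740 on the plus strand, had 2299 and 337 root tags and 20 and 6 shoot tags. Its root libraries differed from each other, at 2419 and 400.2 scaled CPM, and the log2 fold change of -6.01 ± 0.83 (SE; adjusted p = 0.000157, edgeR) came to -4.19 when root replicate 1 and -6.80 when root replicate 2 was left out. Both root libraries spread these tags widely, with 88.4% and 88.7% more than 100 bp downstream of the main start at the 5′ edge.

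The remaining 4 had at most 5 tags in any shoot library. At 1668243 to 1668662 on the minus strand of sequence 13 there were 106 and 38 root tags and 0 and 1 shoot tags, a ratio of root over shoot of 93.5 (exact binomial 95% interval 16.5 to 3720.2), with 44.3% and 39.5% at the main start and 39.6% and 42.1% more than 100 bp downstream. At 9377625 to 9377852 on the plus strand of sequence 3 there were 138 and 303 root tags and 5 and 1 shoot tags, with a log2 fold change of -5.58 ± 0.62 (SE; adjusted p = 4.08e-05, edgeR) that was -6.82 without shoot replicate 1 and -4.80 without root replicate 2. At 427134 to 427337 on the plus strand of sequence 8 there were 91 and 60 root tags and 2 and 0 shoot tags, a ratio of 49.0 (13.3 to 408.7). At 3301117 to 3301287 on the minus strand of sequence 11 there were 94 and 43 root tags and 2 and 0 shoot tags, a ratio of 44.5 (12.1 to 371.1), with 32.9 effective starts.

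The second test asked whether the parts of a region were used in other proportions in the 2 tissues, whatever its total level. For this, positions were joined into sub-starts over gaps of up to 20 bp, and regions were tested if at least 2 sub-starts held 10% or more of the tags in a tissue and passed the count filter. The width limit rests on the same tags, so a region wide in a single list could be chosen through unequal use of its positions. The shares called are therefore a description, and they were not split by list. Of 257 very broad regions tested, 43 (16.7%) were called by edgeR's diffSpliceDGE (Simes test per region, Benjamini-Hochberg adjusted p below 0.05), where 13.4% of all 814 tested regions and 11.8% of the 557 narrower ones were called. At an unadjusted p below 0.05 there were 68. The count fell to 14 without shoot replicate 1, where 13 of the 43 were called again, and to 22 without shoot replicate 2, where 21 were.

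The 43 regions moved in both directions. The mean start position lay further downstream in shoot in 23 and further upstream in 20. In each of the 43 the values of the root libraries did not overlap those of the shoot libraries. The test chose these regions on the same libraries and so favours this separation, which is a description. The shift had a median of 47.3 bp and ran from 5.96 to 164.7 bp. A change of start came with and without a change of level: 15 of the 43 were also called higher in shoot, 10 higher in root and 18 were not called in the level test. That test called 34.5% of all 638 very broad regions tested higher in shoot and 26.3% higher in root. Whether the 43 differ from these shares was not tested, so their counts are a description. The regions in which a single gap took up at least 50% of the width gave 8 calls of 49 tested and the others 35 of 208.

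The lowest adjusted p was found at 54501876 to 54502308 on the minus strand of sequence 2 (8.13e-09, edgeR's diffSpliceDGE), a region whose level was not called. Its upstream sub-start, 4 bp wide at 54502305 to 54502308, held 0.599% and 2.14% of the tested tags in root and 48.3% and 39.8% in shoot. The middle one, at 54501958 to 54502038, held 92.5% and 87.7% in root and 39.7% and 47.0% in shoot. The most used base of the region lay 329 bp further upstream in both shoot libraries than the common main start. Total tags were 384 and 243 in root and 209 and 126 in shoot, and the levels of the tissues overlapped.

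At 39759715 to 39759993 on the plus strand of sequence 13 a similar upstream site appeared in shoot. The sub-start at 39759769 to 39759790 held 1.42% and 1.73% of the tested tags in root and 35.0% and 47.9% in shoot (adjusted p = 1.12e-08, edgeR's diffSpliceDGE). The rest of the tested tags lay in a sharp site at 39759837 to 39759847. Other tags of the region lay outside both sub-starts. Of its 133 and 59 shoot tags, 12.8% and 8.47% lay more than 100 bp upstream of the main start at 39759842. The middle 80% of all tags of the region spanned 5 and 8 bp in root and 111 and 96 bp in shoot. The level was lower in shoot, with a log2 fold change of -1.52 ± 0.28 (SE; adjusted p = 0.000912, edgeR).

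At 13162934 to 13163127 on the minus strand of sequence 8 the shoot used a site at the downstream edge. The sub-start at 13162934 to 13162954 held 1.14% and 0.847% of the tested tags in root and 52.1% and 55.7% in shoot. The one at 13163053 to 13163078 held 75% and 75.4% of the tested tags in root and 33.6% and 31.8% in shoot (adjusted p = 5.34e-08, edgeR's diffSpliceDGE). The call of its level, a log2 fold change of 0.74 ± 0.27 (SE; adjusted p = 0.04, edgeR), was lost under 9 of 11 other settings. The call of its starts was made under all 10 other settings tried.

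In 2 further regions shoot also used sites downstream of those used most in root. At 10206713 to 10206904 on the plus strand of sequence 11, the sub-start at 10206856 to 10206904 held 12.2% and 8.70% in root and 87.1% and 84.8% in shoot (adjusted p = 6.71e-07, edgeR's diffSpliceDGE), and the most used base lay 185 bp apart in the tissues. At 48085114 to 48085425 on the plus strand of sequence 4, the second sub-start from the 5′ edge, at 48085136 to 48085140, held 59.0% and 42.6% in root and 5.38% and 0% in shoot (adjusted p = 3.93e-06, edgeR's diffSpliceDGE). Shoot use was split over the sub-starts further downstream. That at 48085287 held 6.41% and 21.3% in root and 39.2% and 38.2% in shoot. That at 48085376 held 5.13% and 8.20% in root and 19.2% and 21.3% in shoot. The last, at 48085417, held 7.69% and 8.20% in root and 35.4% and 39.3% in shoot. Both regions were called higher in shoot as well, with log2 fold changes of 2.17 ± 0.26 and 1.14 ± 0.25 (SE; adjusted p = 7.60e-05 and 0.00292, edgeR).

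The sixth, at 29601646 to 29601803 on the plus strand of sequence 12, rested on few shoot tags. Its downstream sub-start at 29601797 to 29601803 held 1 and 3 root tags, 0.588% and 2.29% of those tested, and 16 and 9 shoot tags, 38.1% and 40.9% (adjusted p = 6.71e-07, edgeR's diffSpliceDGE). The call was lost without shoot replicate 1 (adjusted p = 1.00, edgeR's diffSpliceDGE).

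**Figure D4:**
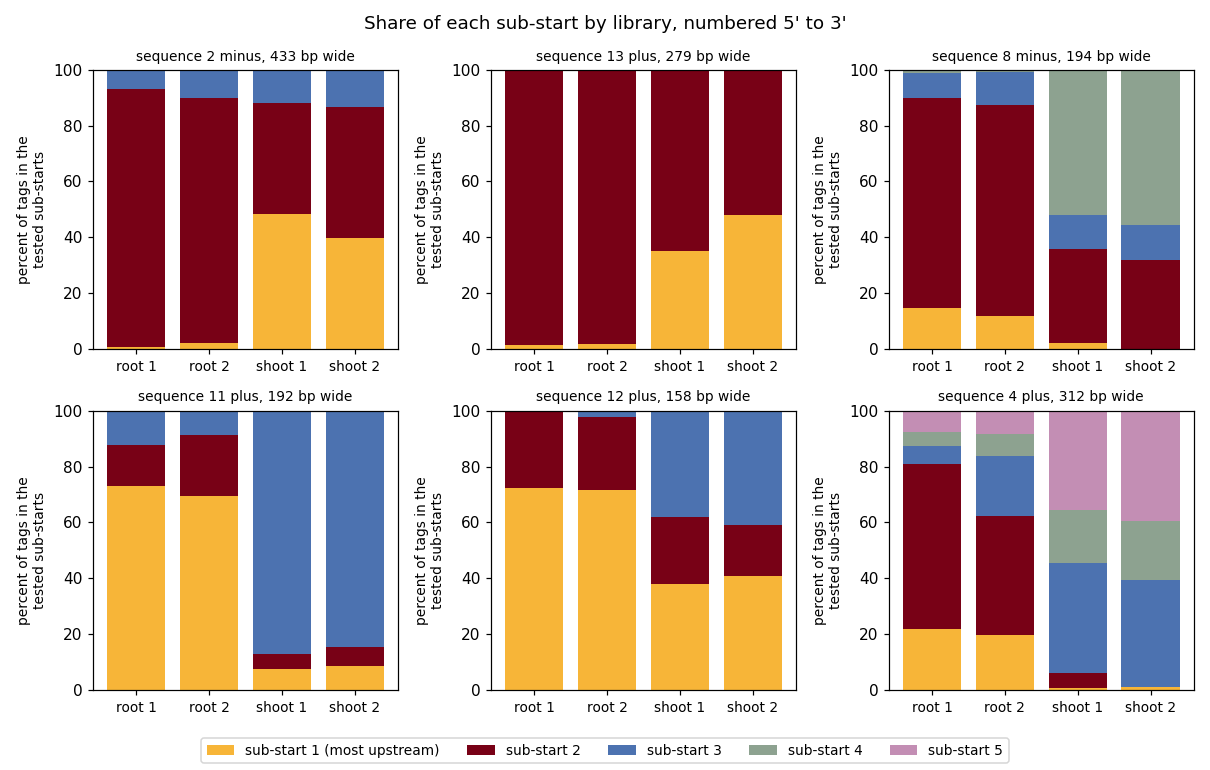
Stacked bars give each sub-start's percent of the tested tags (y axis, 0 to 100) in each of the 4 libraries for the 6 regions with the lowest adjusted p in the test of sub-start use, numbered from the 5′ side. The 2 bars of a tissue resemble each other, and in each region a sub-start that held 12.2% or less of both root libraries took 35% or more of both shoot libraries.

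How far a profile repeats between libraries sets the scale for such changes. In the 212 very broad regions with at least 50 tags in each library, drawn down to 50 tags each, the most used base was the same in 68.9% of regions for the 2 root libraries and in 69.3% for the 2 shoot libraries. For the 4 root-shoot pairs it was the same in 63.7% to 64.6%. The 902 narrower regions with as many tags gave 81.4% and 82.0% within a tissue and 80.2% to 81.7% between tissues. Position shares overlapped by a mean of 61.9% and 63.1% within a tissue and 58.5% to 58.8% between tissues in very broad regions, and by 76.9%, 77.8% and 75.1% to 75.2% in narrower ones. The regions with the flattest profiles had no base that led clearly, as at 15902573 on sequence 13.

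On all 20 sequences, the pooled TPM gave a like picture. Of 737 very broad regions with 5 TPM or more in both tissues, 480 (65.1%) had the same most used base in root and shoot. It lay more than 50 bp away in 152, downstream in shoot in 73 and upstream in 79.

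The spread of tags did not separate the tissues. In the same 212 regions the middle 80% spanned a median of 92.5 and 94.0 bp in the root libraries and 90 and 93.5 bp in the shoot libraries, and the ranges of the tissues overlapped. At 50 tags each it was 90.5, 95.5, 94.5 and 94.0 bp. It reached 150 bp in 58, 58, 62 and 61 of the 212 regions and was 20 bp or less in 30, 26, 29 and 26. In the 902 narrower regions the median was 20 to 21 bp.

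More of the tags away from the main start lay downstream than upstream. The median share more than 10 bp downstream was 24.1% and 22.1% in root and 19.1% and 20.7% in shoot, and that more than 10 bp upstream was 12.8% and 14.1% in root and 14.8% and 13.7% in shoot. Both root libraries thus had more downstream tags than both shoot libraries, a difference that 2 libraries per tissue cannot take below an exact permutation p of 0.3333. Downstream tags outnumbered upstream tags in 133 and 127 regions in root and in 116 and 121 in shoot, and upstream tags were more in 78, 83, 95 and 91. The same side led in all 4 libraries in 84 regions for downstream and in 46 for upstream. Narrower regions had more downstream tags in 445 to 452 of 902 and more upstream tags in 329 to 335.

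**Figure D5:**
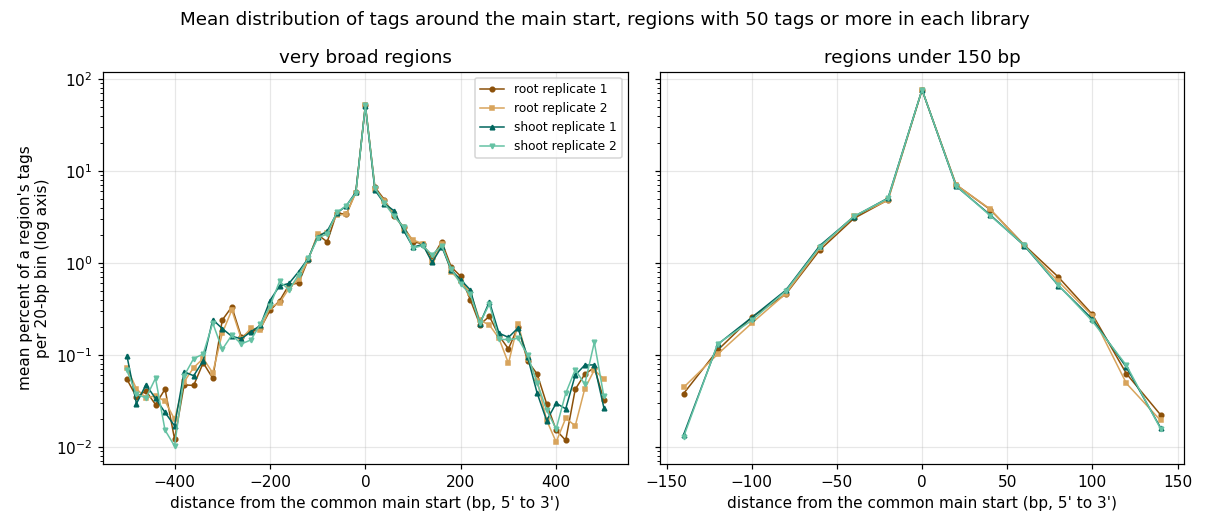
Mean percent of a region's tags per 20-bp bin (y axis, log) by distance from the main start of both tissues (x axis, bp, 5′ to 3′) in the 4 libraries, for 212 very broad regions (left, up to 500 bp each way) and 902 narrower ones (right). The central bin held 51.2% to 52.6% in very broad and 76.2% to 76.7% in narrower regions, and of 25 bins out to 500 bp in very broad regions, the downstream one was higher in all 4 libraries at 13 distances, the upstream one at 3 (100 bp among them), and the libraries differed at 9.

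The 305 regions outside the count table have 1 pooled value per tissue and no replicate check. By TPM, shoot exceeded root 5-fold or more in 16.7% of them and root exceeded shoot in 13.8%, and the covered regions gave 19.4% and 13.1% by the same measure. The strongest of them lies at 40020086 to 40020393 on the minus strand of sequence 19, with 4650 TPM in root and 4584 TPM in shoot, and a single base held 75.9% and 74.4% of these. At 3566171 to 3566485 on the plus strand of sequence 16 the values were 7243 and 1104 TPM, with 76.0% and 74.9% at the main start although 113 positions reached 1 TPM. At 24519203 to 24519486 on the plus strand of sequence 17 they were 1199 and 3206 TPM, with 43.4% and 43.7% at the main start. These 3 had the same main start and nearly the same concentration in both tissues.

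The fourth, at 2149963 to 2150155 on the plus strand of sequence 18, was almost a shoot region, with 13.5 TPM in root and 3417 TPM in shoot. Its main start at 2150093 held 46.9% of the root and 60.1% of the shoot TPM, and the middle 80% spanned 133 bp in root and 8 bp in shoot. The root value rests on 12 positions.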

How the data were processed

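The 2 root and 2 shoot nanoCAGE libraries were assigned by their titles. Raw tag counts per position and library come from the deposited count table, per the file headers. It covers sequences 1 to 12, the plus strand of 13 and the minus strand of 13 up to 31697699. Its last line was broken and was dropped. The deposited TPM table gives 1 pooled TPM value per tissue and position, and the authors' cluster lists, from pooled replicates, hold each cluster's bounds with a TPM score, per the file headers. The aligner, the genome build and the handling of multiply mapping reads were not given in the sources used here, so tags of near-identical gene copies could have been split or joined, and single regions are uncertain to that extent. Coordinates are those of the files, counted from 1.

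Clusters of both lists within 100 bp on a strand were merged, and tags were summed per region. Levels were tested with edgeR 4.0.16 (R 4.3.3; TMM, filterByExpr, quasi-likelihood, tissue as the only term, Benjamini-Hochberg over all 7183 regions), and use of sub-starts with diffSpliceDGE. Both were tested on simulated data. DESeq2 1.42.0 was an alternative. Of the 639 covered very broad regions, 1 fell below the count filter and 382 lacked 2 testable sub-starts. Libraries of the same replicate number showed no shared effect between the tissues (r = -0.05 over regions). The labels do not say whether they were paired. A fold against 0 tags uses a floor of 3 tags over the tissue's libraries.

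The members and lists were chosen with earlier results of these data known. Named regions were the 6 widest, the 6 most abundant, the 6 with the largest fold per direction among called regions of 50 CPM or more without overlap, the 6 lowest adjusted p for sub-starts, the 4 most even with 200 tags per library, the 4 strongest without counts and those nearest each limit. No sequence is printed, as no genome of this assembly was used here.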

Additional observations from a re-analysis of the deposited data

How the results depend on the processing

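Of the values recomputed for the named regions under each alternative, 361 level results and 58 sub-start results were counted as unchanged. The call was lost in 11 and 1, and 2 level results gained it. Among level results called in the main setting, 0 reversed in direction. A change of sign in a region not called there was counted as unchanged, and the direction of sub-start results was not compared. A region named under more than 1 rule was counted under each. The level test called 315 very broad regions with DESeq2 and 400 scaled to total tags, where 45.5% of the calls were higher in shoot. It called 332 to 382 with a library left out. With the replicate number as a block it called 365, of which 363 were also called without the block, and the block gave 44 calls for sub-starts. The labels give the libraries only a shared number, so the block has no basis in a stated pairing. Calls for sub-starts ran from 14 to 45 with a library left out. A width limit of 200 bp gave 454 regions, and positions with 5% or more of the cluster's TPM gave 515. Counting only positions of 1 TPM or more in the tissue of the list gave 899, an alternative chosen after seeing the data, as was the separate account of regions with a gap of at least 50% of their width. The cut from 5% to 95% gave 130.0 bp in root and 130.75 bp in shoot, that from 25% to 75% 37.0 and 41.0 bp, and 50 tags 94.25 bp in shoot. More than 5 bp from the main start lay 25.7% downstream and 17.6% upstream in root and 23.9% and 17.7% in shoot, and more than 25 bp 15.3% and 8.20% in root and 11.9% and 9.33% in shoot. The main start was the same in 57.5% within and 52.4% between tissues at 20 tags, and in 76.9% and 72.1% when 5 bp apart counted as the same. Within 500 bp, 5.72% of very broad regions had an opposite-strand and 18.9% a same-strand cluster, and 2.44% and 15.6% within 1000 bp for clusters of 5 TPM or more. Where a value has no shown cause, the cause was not tested. Depth limits the profiles: 212 of 639 covered regions had 50 tags in each library.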
